A study of Mus musculus with 24 samples.

Results

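Histone cluster genes are the rows of the expression table whose symbol begins with Hist1h, Hist2h, Hist3h or Hist4h. Of 22667 genes listed, 65 matched, 10 of these had no value in any sample, and 54 of the other 55 had a count in at least 3 of the 24 samples. These 54 genes are described here and comprise 6 genes of linker histone H1, 13 of H2A, 14 of H2B, 11 of H3 and 10 of H4. A filter on low counts left 24 of them for a test between groups (5 of H1, 5 of H2A, 7 of H2B, 3 of H3 and 4 of H4). The other 30 averaged between 0.00537 and 0.086 CPM (counts scaled to library size), and the largest count that any of them reached in any library was 22, for Hist2h3c1, a row whose identity is uncertain.

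The samples were mouse E14 embryonic stem cells (ESCs) and cells derived from them in culture. WT cells carried normal Polr2a, which encodes the largest subunit of RNA polymerase II, and slow/slow cells carried an arginine-to-histidine substitution on both alleles, introduced by rounds of gene targeting. Each genotype was sampled as ESCs, as neural progenitor cells (NPCs) on day 7 of the protocol, as PSA-NCAM+ cells purified with beads at day 10, and as neurons collected 14 days after replating at day 7, with 3 samples in each of the 8 groups. The replicates came, by the study's methods, from separate differentiations of these lines. Slow/slow cells were reported to die more at plating densities that suited WT cells. The paper's methods do not give the initial density of the sequenced samples of each genotype. Any difference in density therefore cannot be told apart from genotype in the differentiated cells. RNA was selected by its poly(A) tail and sequenced with paired reads of 75 bases.

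Most histone protein in dividing cells is made in S phase from clustered genes whose mRNAs lack introns and a poly(A) tail. Their mRNAs end instead just after a short hairpin, which is bound by the stem-loop binding protein SLBP and cut with the help of the U7 small nuclear RNA. NPAT and CASP8AP2 act in the nuclear body where these genes are transcribed. Some cluster genes also make polyadenylated mRNA, and poly(A) selection keeps mainly that form. The levels given below therefore describe polyadenylated or carried-over histone transcripts and not the whole histone mRNA of the cells.

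Total counts per sample ran from 32974432 to 104466886. The 54 genes together took between 459 and 11699 of these counts, which is 0.0012% to 0.0119% of a library. The shallowest library, slow/slow neuron replicate 3, stood apart for these genes: it was the highest of its 3 replicates in 20 of the 24 tested genes. Slow/slow PSA-NCAM+ replicate 1 was the lowest of its group in 17 of 24, and WT ESC replicate 3 the highest in 16 of 24. The summed level of ESC markers fell from 5450 CPM in WT ESCs to 109 CPM in WT neurons, and from 5188 to 77.0 CPM in slow/slow cells. Markers of young neurons summed to 2772 CPM in WT neurons and to 2576 CPM in their slow/slow counterparts. Of the 4 mature neuron markers, 3 had counts, and their sum was 466 ± 33.7 CPM in WT neurons but 140 ± 0.9 CPM in slow/slow neurons (SD, n = 3).

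The hairpin was looked for because it tells apart the 2 ways in which a histone transcript can end. In the GENCODE M21 transcripts (GRCm38), 51 of the 54 genes had a coding transcript with a stop codon, taken as the longest one. A hairpin of 6 paired bases and a loop of 4, beginning GG, ending CC and with TT opening the loop, lay within 100 bases after the stop in 35 of the 51, whereas 12 of 19733 other coding genes with a window of that length (0.0608%) held one. The annotated transcript stopped too early to show a hairpin in some of the others, since only 40 of the 51 continued for 50 bases or more past the stop codon. A poly(A) signal, AATAAA or ATTAAA, was found in the last 50 bases of 13 of the 51. Among the other coding genes with 100 or more bases after the stop it was found in 76.0%. These shares are not like for like, because histone transcripts with fewer than 50 bases after the stop were counted as lacking a signal. Both features were present in 10 genes. A match is a description of the annotated sequence and was not tested for use. The identifier of the Hist1h3i row is named Hist1h3c in GENCODE M21, and the hairpin printed for Hist1h3i comes from that transcript. The hairpins of the genes on which the results turn read as follows, 5′ to 3′, with the 16 hairpin bases in capitals.

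Hist3h2ba: ccaaaGGCTCTTTTCAGAGCCaccttcc
Hist3h2a: ccaaaGGCTCTTTTCAGAGCCacccaca
Hist1h1c: caaaaGGCTCTTTTCAGAGCCaccactc
Hist1h1d: caaacGGCTCTTTTCAGAGCCacccaca
Hist1h2ac: ccaaaGGCTCTTTTCAGAGCCcccactt
Hist1h3d: ccaaaGGCTCTTTTCAGAGCCacccccg
Hist1h3i: aaaaaGGCTCTTTTAAGAGCCacctaag
Hist1h4i: ttaaaGGCCCTTTTTAGGGCCaccacaa
Hist1h4d: ccaaaGGCCCTTTTCAGGGCCactacct
Hist2h4: ctaacGGCCCTTTTTAGGGCCaaccaca

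The most frequent hairpin, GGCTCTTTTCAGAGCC, was carried by 19 genes of types H1, H2A, H2B and H3, among them Hist3h2ba and Hist3h2a. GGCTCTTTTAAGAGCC was carried by 6 genes and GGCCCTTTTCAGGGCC by 5 genes, the latter all of type H4. The annotated Hist3h2ba transcript ran 169 bases beyond its hairpin and that of Hist3h2a 1643 bases, and both held AATAAA within their last 50 bases. The Hist1h1c transcript ran 840 bases beyond the hairpin and also held AATAAA near its end. Hist1h4i (330 bases beyond the hairpin, ATTAAA) and Hist2h4 (1257 bases, AATAAA) were built in the same way. Hist2h2be, which encodes an H2B, had no hairpin within 100 bases of its stop, continued for 2192 bases after it and held AATAAA near its end. Hist1h2bc, another H2B gene, had no hairpin in that window and neither poly(A) signal at its end. Of the 23 tested genes with such a transcript, 17 held the hairpin, 8 the poly(A) signal and 7 both.

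The genes lie mainly on chromosome 13, where 44 of them fall between bases 21716422 and 23934851 of GRCm38. A further 7 lie on chromosome 3 and 2 on chromosome 11. Hist4h4 is counted on chromosome 13 by its identifier, whereas RefSeq places the gene of that symbol on chromosome 6. Hist3h2ba (chr11:58948920-58949533) and Hist3h2a (chr11:58954685-58956830) are neighbours on the plus strand. In RefSeq promoter windows of 300 bases (GRCm38.p6), found for 49 of the genes, the octamer ATTTGCAT on either strand was present in 13 (26.5%) against 1.75% of all 27025 promoters. All 13 were H2A or H2B genes, 7 of 13 and 6 of 12. TATAAA on the gene's strand was present in 51.0% against 8.88%, and CCAAT on either strand in 87.8% against 37.9%. The 250 bases before the start of the 2 chromosome 11 genes are given because these genes changed most between ESCs and neurons, with these motifs in capitals.

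Hist3h2a, chr11:58954435-58954684, plus strand: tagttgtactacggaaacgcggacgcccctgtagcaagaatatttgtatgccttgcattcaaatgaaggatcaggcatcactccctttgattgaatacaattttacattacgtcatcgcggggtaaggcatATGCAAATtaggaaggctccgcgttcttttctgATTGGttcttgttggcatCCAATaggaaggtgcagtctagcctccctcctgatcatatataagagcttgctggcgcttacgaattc
Hist3h2ba, chr11:58948661-58948910, plus strand: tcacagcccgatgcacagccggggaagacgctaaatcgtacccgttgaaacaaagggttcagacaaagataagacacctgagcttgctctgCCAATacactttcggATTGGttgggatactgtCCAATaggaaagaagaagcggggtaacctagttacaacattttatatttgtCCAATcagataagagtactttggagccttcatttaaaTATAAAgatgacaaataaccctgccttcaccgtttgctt

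The Hist3h2a window held 1 octamer and 2 CCAAT boxes. The Hist3h2ba window held 4 CCAAT boxes and 1 TATAAA.

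Reads of near-identical copies limit what can be said of single genes. Across the genes with a transcript, a median of 40.4% of all 50-base stretches also occurred in the transcript of another gene, with a range of 0.0% to 93.9%. The share was 22.1% for Hist3h2ba, 31.5% for Hist3h2a, 0.0% for Hist2h2be, 8.5% for Hist1h1c and 30.1% for Hist1h2bc, but 90.1% for Hist1h2ai. Another gene overlapped 6 of the genes on the same strand. Among these were Hist3h2a with Trim17, Hist1h2ac with Gm24991, and Hist1h1e with Hist1h2be, so that their counts cannot be fully assigned. Whether the counting used strand is not given in the sources used here, and 17 genes overlap a gene on the opposite strand. The identifiers of 4 genes, Hist2h2bb, Hist1h3i, Hist2h3c1 and Hist4h4, carry another name in GENCODE M21 (Gm42743, Hist1h3c, Gm20634 and Hist1h4j), and the identity of those rows is uncertain.

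Per unit of length, the highest histone gene in ESCs, NPCs and PSA-NCAM+ cells was Hist1h2bc, and in neurons it was Hist3h2ba. By the authors' mean RPKM (reads scaled by transcript length and library size), Hist1h2bc stood at 5.84 in WT ESCs and 10.7 in slow/slow ESCs. In WT neurons Hist3h2ba stood at 103.4 RPKM, Hist3h2a at 23.98, Hist1h2bc at 8.87 and Hist1h1c at 5.69. In slow/slow neurons the same 4 genes led in the same order, at 80.51, 15.04, 7.39 and 4.997 RPKM. These means carry no error, so that neighbours in the order cannot be separated. High RPKM values of rarely counted genes rested on few reads: Hist1h2af ranked second in slow/slow ESCs on 4 counts.

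Differentiation to neurons raised the summed level of these genes, and Hist3h2ba and Hist3h2a, an H2B and an H2A gene, made up most of the rise. The sum over all 54 genes was 14.2 ± 2.02 CPM for WT ESCs, 18.6 ± 0.154 CPM for NPCs, 17.1 ± 2.16 CPM for PSA-NCAM+ cells and 112 ± 7.97 CPM for neurons (SD, n = 3 throughout). For slow/slow cells, taken in the same order, it was 22.7 ± 0.948, 25.3 ± 0.731, 22.7 ± 2.04 and 78.9 ± 11.4 CPM. The 2 chromosome 11 genes held 16.4% of the summed CPM in WT ESCs and 81.7% in WT neurons. In slow/slow cells they held 13.3% and 75.1%. Without them the sum went from 11.9 to 20.5 CPM in WT and from 19.6 to 19.8 CPM in slow/slow. In samples of whole cultures, a lower level can come from fewer cells of a type or from less RNA per cell, and these cannot be told apart.

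**Figure D1:**
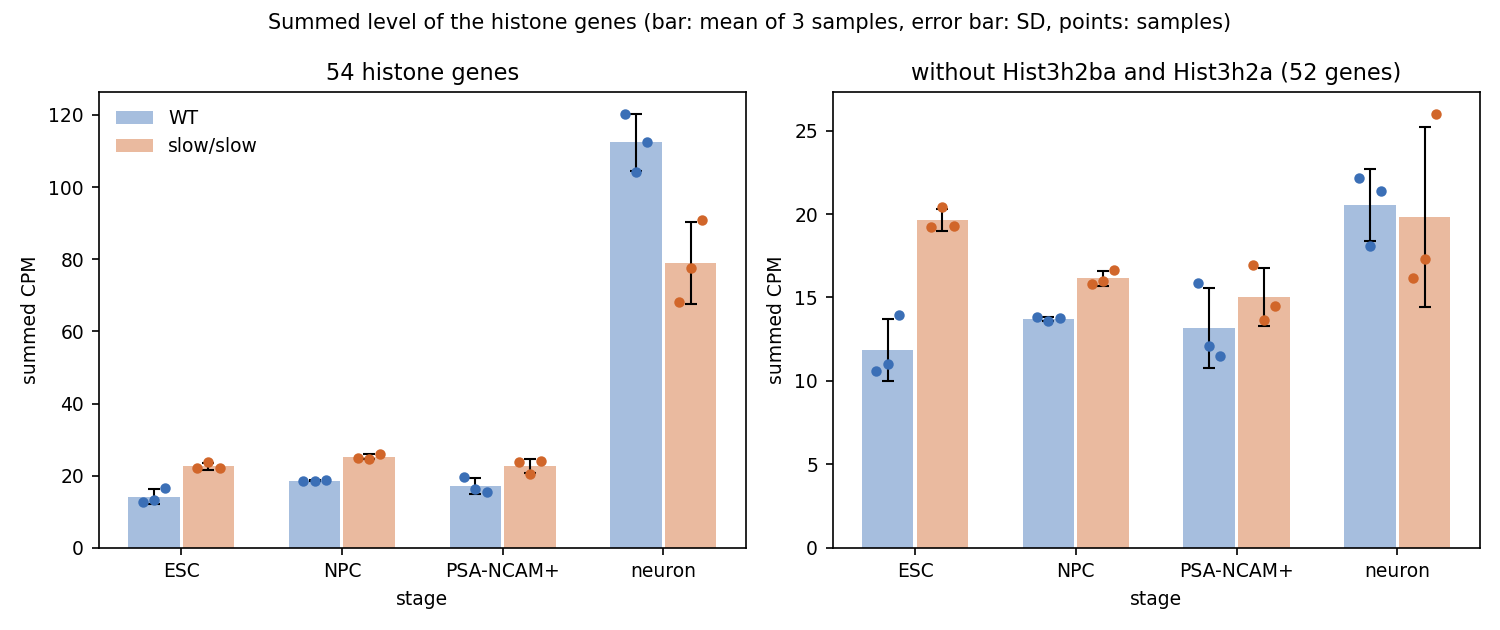
Summed level of the histone genes in CPM by stage, with all 54 genes on the left and without Hist3h2ba and Hist3h2a on the right (bars are means of 3 samples, error bars are SD, points are samples). With all genes, neurons rise to 112 CPM in WT against 78.9 CPM in slow/slow, and without the 2 genes they stand at 20.5 and 19.8 CPM.

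Hist3h2ba was nearly silent in ESCs and became the leading histone gene of neurons. Its level in the 3 WT ESC samples was 0.106, 0.172 and 0.323 CPM, in WT NPCs 0.749, 1.13 and 1.06 CPM, in WT PSA-NCAM+ cells 0.729, 0.992 and 0.896 CPM, and in WT neurons 51.9, 44.8 and 47.7 CPM. The slow/slow samples had 0.362, 0.491 and 0.403 CPM as ESCs, 3.18, 3.41 and 3.55 as NPCs, 1.94, 2.36 and 3.9 as PSA-NCAM+ cells, and 29.6, 35 and 37.7 as neurons. Every neuron sample lay far above every ESC sample in both genotypes. The log2 change from ESC to neuron was 7.90 (SE 0.32, FDR 3.83e-15) in WT and 6.33 (SE 0.29, FDR 4.55e-14) in slow/slow. FDR is the Benjamini-Hochberg adjusted p of edgeR's quasi-likelihood test over all 16627 genes tested, and a gene was called at an FDR under 0.05.

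Its neighbour Hist3h2a followed the same order of stages from a higher starting level. WT samples had 2.14, 1.98 and 2.19 CPM as ESCs, 3.85, 3.92 and 3.85 as NPCs, 2.9, 3.31 and 3.01 as PSA-NCAM+ cells, and 46.2, 41.4 and 43.5 as neurons. Slow/slow samples had 2.58, 2.84 and 2.38 CPM, then 6.04, 5.3 and 5.87, then 4.84, 4.36 and 5.62, and 22.4, 25.4 and 27.1 CPM as neurons. The groups did not overlap between ESCs and any later stage in either genotype. The log2 change to neurons was 4.37 (SE 0.12, FDR 1.7e-17) in WT and 3.26 (SE 0.12, FDR 1.07e-15) in slow/slow. Trim17, an E3 ligase gene whose annotation overlaps Hist3h2a on the same strand and which is named for that reason after its values were seen, rose as well, from 0.786 CPM in WT ESCs to 3.84 CPM in WT neurons (log2 change 2.29, FDR 5.93e-07). Its mean CPM was below that of Hist3h2a in each of the 8 groups.

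Hist2h2be was the third gene of this kind. WT samples had 0.532, 0.316 and 0.539 CPM as ESCs and 6.69, 5.38 and 6.01 CPM as neurons, and slow/slow samples had 1.29, 0.777 and 0.929 CPM as ESCs and 4.17, 4.26 and 3.84 CPM as neurons. Neurons lay above ESCs in every sample. The log2 change was 3.67 (SE 0.29, FDR 2.14e-10) in WT and 2.03 (SE 0.27, FDR 6.63e-07) in slow/slow.

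**Figure D2:**
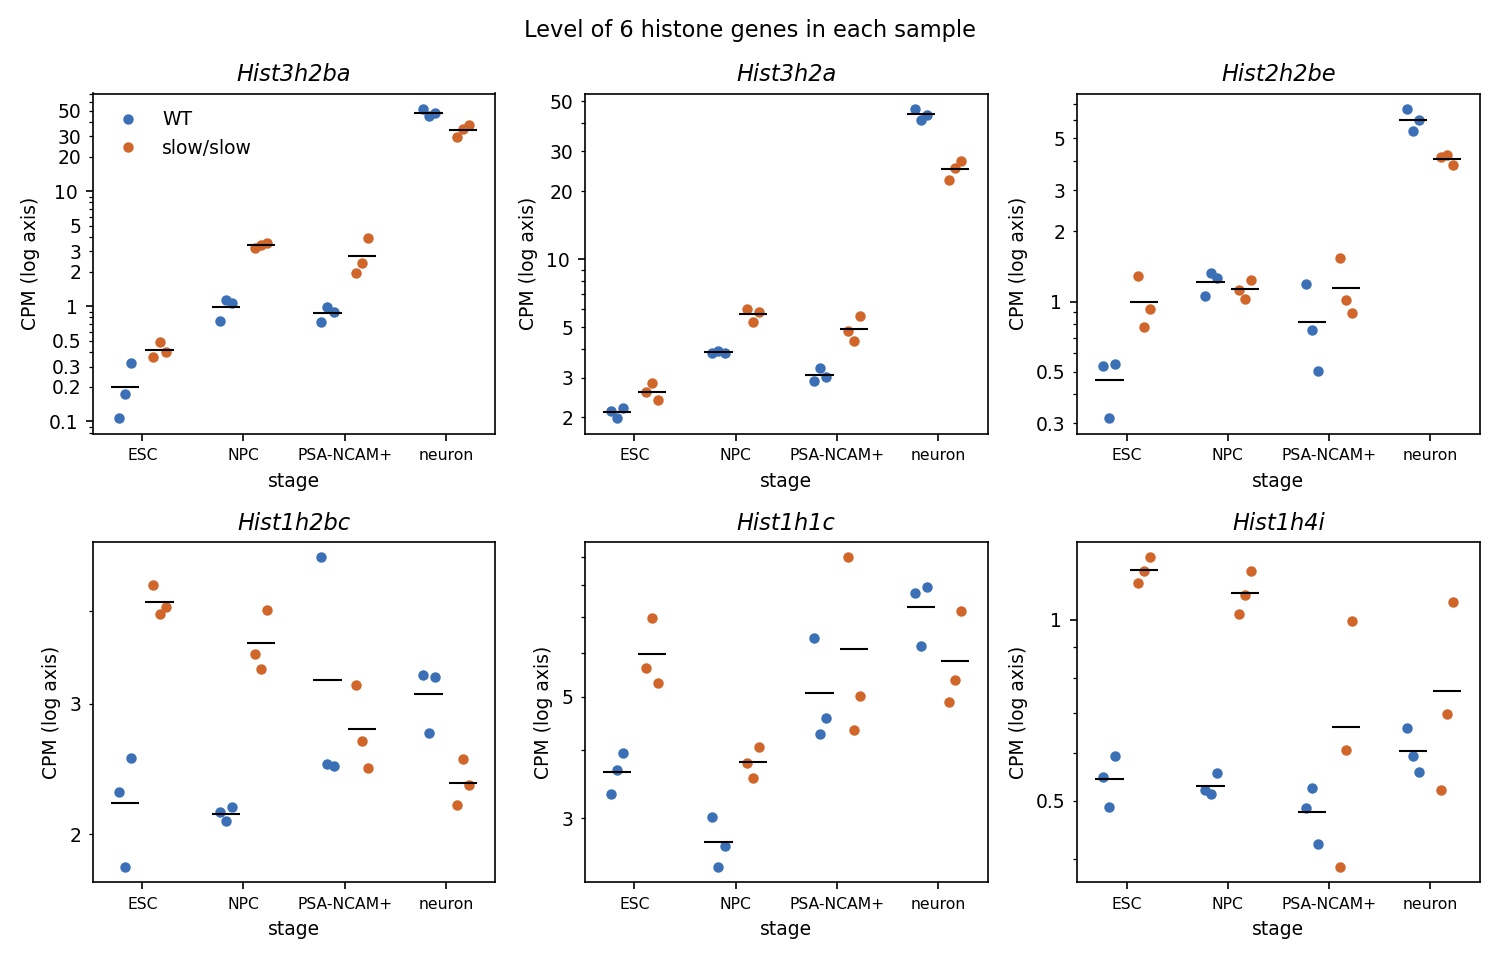
Level of 6 histone genes in CPM on a log axis by stage, with 1 point per sample and a line at the mean of 3 samples. Hist3h2ba, Hist3h2a and Hist2h2be are highest in neurons of both genotypes, while Hist1h2bc, Hist1h1c and Hist1h4i stay within a narrower range.

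The levels of these 3 genes in poly(A)-selected RNA rose while most listed genes of S phase and proliferation fell. Histone transcripts without a poly(A) tail are mostly lost in the selection, so whether these genes depend on replication was not tested. Of 24 genes of S phase and proliferation, 23 were lower and 1 higher in WT neurons than in WT ESCs. In slow/slow cells 23 were lower and 0 higher, with 0 higher also at an unadjusted p under 0.05 in edgeR. Across the tested histone genes the WT comparison was evenly split, with 7 of 24 higher and 7 lower, beside 43.4% of all genes higher and 39.4% lower. The median log2 change was -0.35 over the 24 genes and 0.08 over all genes. In slow/slow cells 5 were higher (44% of all genes) and 5 lower (38.4%), with medians of -0.22 and 0.12. The shares of called histone genes were thus below those of all genes in both directions. The median level of the 24 genes was 0.228 CPM. Low counts make a call harder, and their part in these shares was not tested.

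The other genes higher in WT neurons were Hist2h2bb at 2.12 on the log2 scale (SE 0.42, FDR 0.000101), Hist1h2ac at 2.01 (SE 0.50, FDR 0.00103), Hist1h1c at 1.00 (SE 0.23, FDR 0.000437) and Hist1h2bc at 0.48 (SE 0.20, FDR 0.0343). Hist1h1c, an H1 gene, had 3.33, 3.67 and 3.95 CPM in WT ESCs and 7.75, 6.18 and 7.92 CPM in WT neurons, with no overlap. In slow/slow cells it had 5.65, 6.98 and 5.3 CPM in ESCs and 4.9, 5.36 and 7.18 CPM in neurons, which overlapped. Hist1h2bc moved in opposite directions in the 2 genotypes. It had 2.28, 1.81 and 2.53 CPM in WT ESCs and 3.28, 2.74 and 3.26 CPM in WT neurons. In slow/slow cells it had 4.34, 3.97 and 4.06 CPM in ESCs and 2.19, 2.53 and 2.33 CPM in neurons, a log2 change of -0.81 (SE 0.20, FDR 0.00114). The WT call of Hist1h2bc was lost without any of 4 of the 6 samples compared, with an FDR of up to 0.174.

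In WT cells the genes that fell towards neurons were of H1, H2A, H3 and H4 and had low counts. Hist1h1a, the H1 gene with the clearest fall, had 0.775, 0.631 and 1.26 CPM in WT ESCs and 0.0921, 0.128 and 0.144 CPM in WT neurons. Its slow/slow samples had 1.11, 0.777 and 1.18 CPM as ESCs and 0.164, 0.187 and 0.493 CPM as neurons. All neuron samples lay below all ESC samples of the same genotype. The log2 changes were -2.84 (SE 0.42, FDR 2.6e-06) in WT and -1.96 (SE 0.40, FDR 0.00014) in slow/slow.

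Hist1h3i, an H3 gene, had 11, 4 and 17 counts in WT ESCs and 1, 1 and 2 counts in WT neurons, a log2 change of -3.40 (SE 0.82, FDR 0.000739). Hist1h3g, also of H3, had 6, 1 and 11 counts in WT ESCs and 0, 1 and 0 counts in WT neurons, too few for a fold change to be given. Hist1h4d, of H4, had 9, 4 and 16 counts in WT ESCs and 4, 2 and 6 in WT neurons, a log2 change of -1.80 (SE 0.73, FDR 0.0288) that was lost without WT ESC replicate 3, WT neuron replicate 2 or WT neuron replicate 3. Hist1h1b, Hist1h2ae and Hist1h2ag completed the 7 called genes. In slow/slow neurons Hist1h4i, of H4, was lower by a log2 change of -0.69 (SE 0.27, FDR 0.0214), and Hist1h1e and Hist1h2be, which overlap each other, were higher at 1.86 and 1.01. The Hist1h4i call was lost in 2 of the 6 fits without 1 sample and with library totals alone. The Hist1h2be call (FDR 0.0322) was lost in 4 of these 6 fits and with DESeq2. Without slow/slow neuron replicate 3, 16 histone genes were called in this comparison, 5 higher and 11 lower, and without replicate 2 of that group 6 were called.

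**Figure D3:**
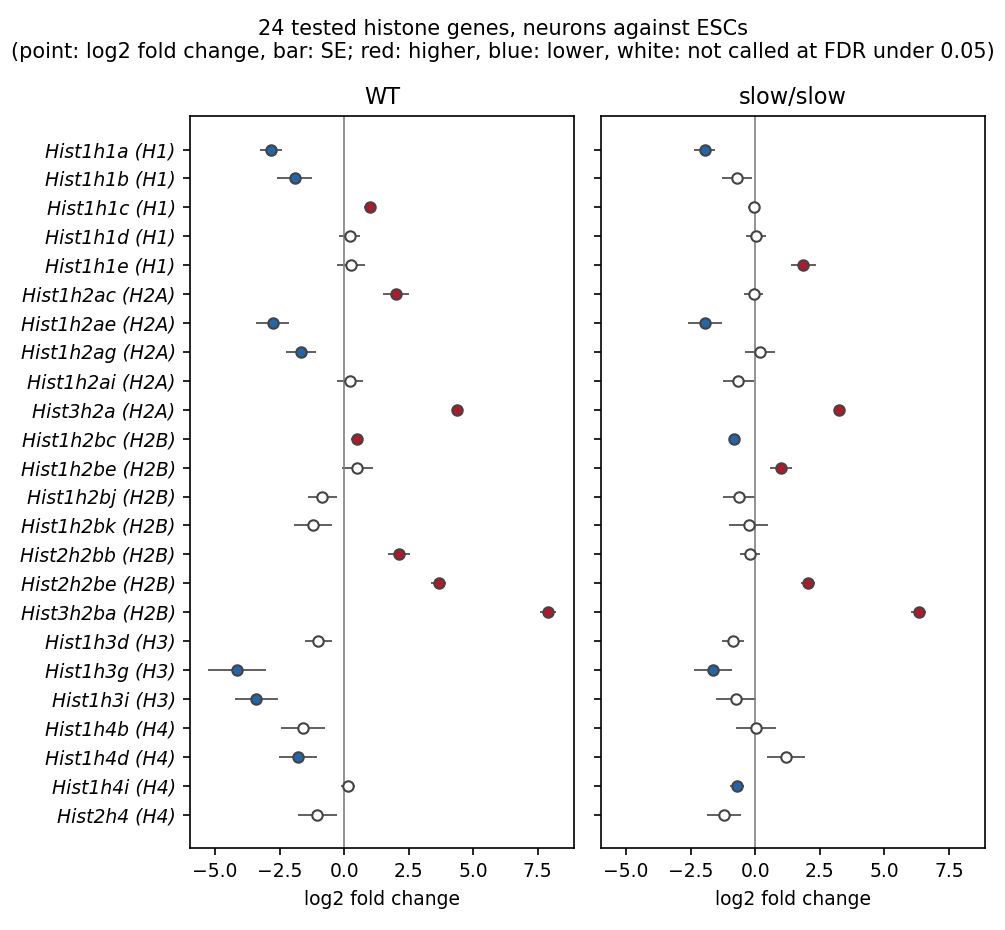
Log2 fold change from ESCs to neurons for the 24 tested histone genes in WT and slow/slow cells (points are estimates, bars are SE, red is called higher, blue called lower and white not called). Hist3h2ba lies farthest to the right in both genotypes at 7.90 and 6.33, followed by Hist3h2a and Hist2h2be.

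In the fit of all samples fewer histone genes were called at the earlier stages, but this order depended on the fit. With only the samples compared, 11 were called in WT NPCs, 3 in WT PSA-NCAM+ cells and 9 in WT neurons against ESCs. In slow/slow cells that fit called 4, 6 and 11 in the same order of stages, beside 3, 9 and 10 in the fit of all samples. From ESC to NPC, 5 of 24 were higher in WT (34% of all genes) and 0 lower (31.6%; 1 at an unadjusted p under 0.05 in edgeR and 0 with DESeq2), with a median log2 change of 0.64 against 0.03 over all genes. In slow/slow NPCs 2 were higher (33.9%) and 1 lower (28.4%), with medians of -0.14 and 0.04. From ESC to PSA-NCAM+ cells, 5 were higher (37.6%) and 1 lower (33.6%) in WT, and 2 were higher (39.2%) and 7 lower (34.2%) in slow/slow. The median log2 changes were -0.32 in WT and -0.48 in slow/slow, against 0.05 and 0.07 over all genes. The WT NPC count was 3 without WT ESC replicate 1 and 8 where libraries were scaled by their totals alone.

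Hist3h2ba and Hist3h2a accounted for both genes that were higher in slow/slow NPCs and both that were higher in slow/slow PSA-NCAM+ cells. Hist3h2ba was higher than in ESCs of the same genotype by 2.30 (FDR 3.4e-06) in WT NPCs and 3.00 (FDR 1.26e-08) in slow/slow NPCs on the log2 scale. Hist3h2a was higher by 0.88 (FDR 1.15e-06) and 1.14 (FDR 2.84e-08). Hist2h2be was higher in WT NPCs at 1.06, 1.33 and 1.26 CPM, a log2 change of 1.36 (SE 0.29, FDR 0.00031), while slow/slow NPCs at 1.13, 1.03 and 1.23 CPM overlapped slow/slow ESCs. In slow/slow PSA-NCAM+ cells Hist1h1a, Hist1h4i and Hist1h2bc were lower, with log2 changes of -1.37 (FDR 0.00249), -0.84 (FDR 0.00732) and -0.58 (FDR 0.0151).

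The comparison of slow/slow with WT cells sets the targeted cells beside their parental line at each stage. The mutation cannot be told apart here from the targeting and later culture of the line. The study does not describe the replicates as separately targeted lines, so the FDR covers spread between cultures. In ESCs 11 of the 24 tested genes were higher in slow/slow and 0 lower, beside 18.5% of all genes higher and 21.9% lower. The median log2 change was 0.72 over the histone genes and -0.02 over all genes. The 11 genes were of all 5 types, with 5 of the 7 H2B genes among them. At an unadjusted p under 0.05, edgeR likewise had 0 lower, and DESeq2 called 9 higher and 0 lower.

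Hist1h4i, an H4 gene, had 0.547, 0.488 and 0.593 CPM in WT ESCs and 1.15, 1.21 and 1.27 CPM in slow/slow ESCs, a log2 change of 1.14 (SE 0.27, FDR 0.00223). Hist1h2bc had 2.28, 1.81 and 2.53 CPM against 4.34, 3.97 and 4.06 CPM, a change of 0.89 (SE 0.21, FDR 0.00163). In both genes every slow/slow sample lay above every WT sample. Hist1h1c differed by 0.71 (SE 0.23, FDR 0.0171), also without overlap. Hist1h2ac, of H2A, was the gene with the largest log2 change, 3.21 (SE 0.48, FDR 2.3e-05), on 3, 3 and 2 counts in WT and 21, 23 and 18 counts in slow/slow ESCs. Hist1h2be and Hist2h2bb followed at 2.06 (FDR 0.0059) and 1.59 (FDR 0.00679). Hist2h2be was higher by 1.08 (FDR 0.006), Hist3h2ba by 1.07 (FDR 0.0266) and Hist3h2a by 0.31 (FDR 0.0414). Hist1h3d (1.17, FDR 0.0468) and Hist1h1d (1.13, FDR 0.0354) made up the rest.

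Of these 11 calls, 6 held whichever sample was left out, and the count of calls was 7 without WT ESC replicate 1, WT ESC replicate 2 or slow/slow ESC replicate 2. Hist3h2a, Hist3h2ba, Hist1h1c, Hist1h1d and Hist1h3d were the 5 that did not hold throughout.

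In NPCs 6 of 24 were higher in slow/slow (29.3% of all genes) and 2 lower (27.4%), with a median log2 change of 0.16 against 0.01. Hist3h2ba stood at 0.749, 1.13 and 1.06 CPM in WT NPCs and at 3.18, 3.41 and 3.55 CPM in slow/slow NPCs, a log2 change of 1.77 (SE 0.24, FDR 5.53e-06). Hist1h4i had 0.52, 0.513 and 0.555 CPM against 1.02, 1.1 and 1.21 CPM, a change of 1.06 (SE 0.27, FDR 0.00242). Hist1h2bc had 2.14, 2.08 and 2.17 CPM against 3.51, 3.34 and 4.02 CPM, a change of 0.76 (SE 0.20, FDR 0.00361). None of these 3 genes overlapped between genotypes. Hist1h1a went the other way, with 1.75, 1.43 and 1.48 CPM in WT NPCs against 0.686, 0.668 and 0.641 CPM in slow/slow NPCs, a change of -1.22 (SE 0.36, FDR 0.0066). Hist1h3i was lower as well at -1.55 (FDR 0.0363), and it alone among the 8 called genes lost its call when single samples were left out.

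In PSA-NCAM+ cells 6 of 24 were higher (28.6% of all genes) and 0 lower (28.1%), with a median log2 change of 0.28 against -0.01. Hist3h2ba had 0.729, 0.992 and 0.896 CPM in WT against 1.94, 2.36 and 3.9 CPM in slow/slow cells, a change of 1.67 (SE 0.24, FDR 9.35e-06). Hist3h2a had 2.9, 3.31 and 3.01 CPM against 4.84, 4.36 and 5.62 CPM, a change of 0.69 (SE 0.11, FDR 2.46e-05). Both genes kept their calls whichever sample was left out, but Hist3h2a lost its call in the fit of these 6 samples alone (FDR 0.0716). The H1 genes Hist1h1b, Hist1h1e and Hist1h1d were called at FDR 0.0276, 0.0463 and 0.033, and each lost its call in at least 4 of the 6 fits without 1 sample. Same-numbered samples of the 2 genotypes deviated together at this stage, and with the replicate number as a block Hist1h2ac (1.10, FDR 0.0237) had an FDR of 0.0562. With that block 7 genes were called, 6 higher and 1 lower. Hist1h1a was the lower one (-0.71, FDR 0.0202), and Hist2h2be was among the higher ones (0.52, FDR 0.0215). Hist1h1a was also called lower without slow/slow replicate 2 (-1.01, FDR 0.0465). The number of calls was 3 without WT replicate 3, slow/slow replicate 2 or slow/slow replicate 3, and 8 without slow/slow replicate 1. At an unadjusted p under 0.05, edgeR had 7 higher and 0 lower. DESeq2 called 4 higher and 0 lower, and the fit of these 6 samples alone called 2, Hist3h2ba and Hist1h1d.

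In neurons Hist3h2a was lower in slow/slow cells and 10 genes with few counts were higher. Of the 24 genes, 10 were higher (23.4% of all genes) and 1 lower (28.4%), with a median log2 change of 1.00 against -0.06 over all genes. Hist3h2a, with 46.2, 41.4 and 43.5 CPM in WT against 22.4, 25.4 and 27.1 CPM in slow/slow neurons, was lower by a log2 change of -0.81 (SE 0.10, FDR 2.38e-06). Hist3h2ba had 51.9, 44.8 and 47.7 CPM against 29.6, 35 and 37.7 CPM, and Hist2h2be had 6.69, 5.38 and 6.01 CPM against 4.17, 4.26 and 3.84 CPM. All slow/slow samples of both genes lay below all WT samples. Neither passed the test, with log2 differences of -0.50 (FDR 0.0555) and -0.56 (FDR 0.0639), whereas both passed with a block for the replicate number (FDR 0.0133 and 0.00696) and with DESeq2 (0.0306 and 0.0491). The balance of higher and lower calls turned in the fit of these 6 neuron samples alone, which tested 13 histone genes and called 8, 3 higher and 5 lower. Of these 8, 4 were among the 11 called genes. That fit called Hist3h2ba (-0.43, FDR 0.00103), Hist2h2be (-0.48, FDR 0.00159), Hist1h2bc (-0.33, FDR 0.029) and Hist2h2bb (-0.69, FDR 0.0442) as lower beside Hist3h2a. Trim17 was lower too, at 0.843 CPM in slow/slow against 3.84 CPM in WT neurons (log2 change -2.18, FDR 4.84e-06), and its part in the Hist3h2a difference was not tested.

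The 10 higher genes had group means below 1 CPM, and 8 of them lost their call in at least 1 fit without a single sample. Hist1h4d had 4, 2 and 6 counts in WT neurons and 5, 10 and 20 counts in slow/slow neurons, and Hist1h4b had 2, 3 and 2 against 4, 4 and 13. Hist1h1b had 4, 5 and 3 against 6, 9 and 19, and Hist1h3g had 0, 1 and 0 against 3, 1 and 7. The largest of these counts was in slow/slow replicate 3, the shallowest library. Without it 4 histone genes were called, 2 higher and 2 lower. Hist1h2be, with 6, 3 and 11 counts against 43, 41 and 13, and Hist1h1e, with 14, 12 and 20 counts against 30, 41 and 59, remained higher. Hist3h2a and Hist1h2ai were the 2 called lower. Without WT replicate 3, 4 genes were called, 3 higher and 1 lower, and without WT replicate 1 there were 7. Hist1h1b, Hist1h1e, Hist1h2ae, Hist1h2ag, Hist1h2be and Hist1h4b are named here after their values were seen.

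**Figure D4:**
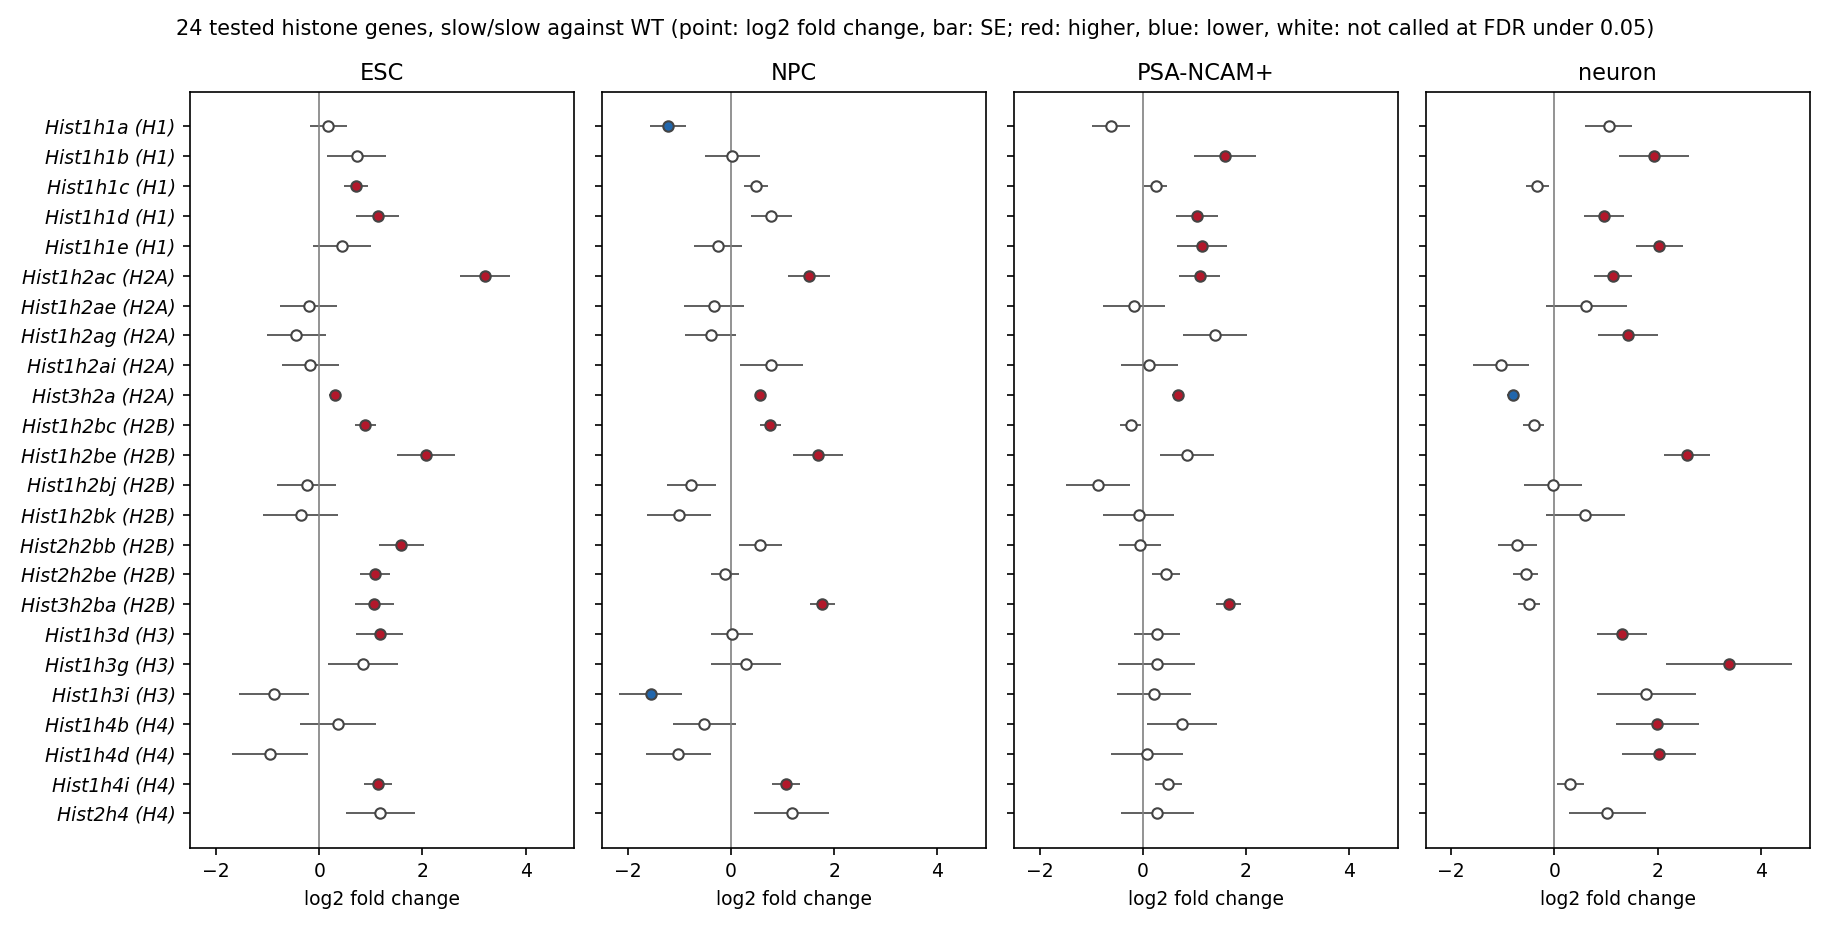
Log2 fold change of slow/slow against WT for the 24 tested histone genes in each stage (points are estimates, bars are SE, red is called higher, blue called lower and white not called). In ESCs 11 genes are called, all higher, and in neurons 10 are higher while Hist3h2a is lower at -0.81.

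Cell markers differed between the neuron groups beside these results. The summed level of the S-phase and proliferation list was 1993 CPM for WT and 2697 CPM for slow/slow neurons. That of 3 mature neuron markers was 466 and 140 CPM. The sum of 3 neural progenitor markers with counts was 394 and 625 CPM. That sum did not single out progenitors, at 404 CPM in WT ESCs and 278 CPM in WT NPCs. In slow/slow cells it was 357 CPM in ESCs and 343 CPM in NPCs. The 6 glial markers summed to 217 CPM for WT and 91.0 CPM for slow/slow neurons. Their part in the histone gene differences was not tested. By type, the summed level in slow/slow against WT neurons was 26.2 against 44.6 CPM for H2A, 42.1 against 58.4 CPM for H2B, 7.95 against 8.03 CPM for H1, 0.834 against 0.464 CPM for H3 and 1.72 against 0.879 CPM for H4. The H2A, H2B and H4 sums did not overlap between genotypes, and the H1 and H3 sums did. Without slow/slow neuron replicate 3 the slow/slow mean was 1.02 CPM for H4 and 0.525 CPM for H3, a calculation added after seeing the data. In ESCs the slow/slow sum was above the WT sum without overlap for H1 (8.29 against 5.24 CPM), H2A (4.19 against 3.25), H2B (7.04 against 3.63) and H4 (2.15 against 1.23).

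The difference between genotypes itself differed between stages for some genes. Between NPCs and ESCs, 0 of 24 genes had a genotype effect that was higher in NPCs (13.6% of all genes; 0 at an unadjusted p under 0.05 in edgeR and 0 with DESeq2) and 2 had a lower one (11%), with a median of -0.46 against 0.05. These were Hist1h1a at -1.40 (SE 0.51, FDR 0.0489) and Hist2h2be at -1.19 (SE 0.40, FDR 0.0335), and neither call held in every fit without 1 sample. Between neurons and ESCs, 1 gene had a higher genotype effect (20.5%) and 7 a lower one (21.6%), with medians of 0.18 and -0.03. The 7 were Hist2h2bb at -2.31 (FDR 0.00307), Hist1h2ac at -2.07 (FDR 0.0108), Hist2h2be at -1.63 (FDR 0.00185), Hist3h2ba at -1.57 (FDR 0.00587), Hist1h2bc at -1.29 (FDR 0.00123), Hist3h2a at -1.11 (FDR 1.07e-05) and Hist1h1c at -1.04 (FDR 0.0125). All 7 were called in every fit without 1 sample. Hist1h4d, at 2.98 (SE 1.03, FDR 0.0247), was not called without slow/slow neuron replicate 3 or any of 3 other samples.

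Genes of histone mRNA 3′ end processing and its nuclear body were counted beside the shares of all genes called, given in brackets. Of the 17 tested, slow/slow ESCs had 6 higher (18.5% of all genes) and 1 lower (21.9%). NPCs had 10 (29.3%) and 4 (27.4%), PSA-NCAM+ cells 11 (28.6%) and 3 (28.1%), and neurons 3 (23.4%) and 2 (28.4%). Slbp, which binds the hairpin, differed by 0.73 on the log2 scale between WT ESCs at 112 ± 9.6 CPM and slow/slow ESCs at 186 ± 6.32 CPM (FDR 8.44e-05), and by 0.78 between NPCs at 79.1 ± 3.83 and 136 ± 5.85 CPM (FDR 2.67e-05). In PSA-NCAM+ cells it was higher by 0.40 (FDR 0.00999), and in neurons it stood at 95.5 CPM in both genotypes. Eri1, a 3′ exonuclease that acts at the hairpin, was higher in slow/slow at all 4 stages, by 0.86, 1.01, 0.75 and 0.81 on the log2 scale. Casp8ap2 was higher by 0.42 (FDR 0.0405), 0.51 (FDR 0.00997) and 0.40 (FDR 0.0391) in the first 3 stages. Npat was not called at any stage, with log2 differences of 0.23, 0.05, -0.05 and 0.11. Zfp473, a zinc finger protein of the U7 processing complex, was higher in ESCs (0.92, FDR 1.73e-07) and lower in PSA-NCAM+ cells (-0.55, FDR 4.1e-05). Lsm11, a U7 particle subunit, was higher in PSA-NCAM+ cells (0.64, FDR 1.7e-06) and lower in neurons (-0.38, FDR 0.000593).

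Of 15 genes of general polyadenylation, slow/slow ESCs had 4 higher (18.5% of all genes) and 2 lower (21.9%). NPCs had 8 (29.3%) and 2 (27.4%), PSA-NCAM+ cells 7 (28.6%) and 3 (28.1%), and neurons 1 (23.4%) and 0 (28.4%). In neurons 2 were lower at an unadjusted p under 0.05 in edgeR. Pabpc1, the cytoplasmic poly(A)-binding protein, was lower in the first 3 stages by -0.81, -1.16 and -0.83 on the log2 scale and stood at -0.06 (FDR 0.507) in neurons. Nudt21, a subunit of cleavage factor I, was higher at all 4 stages, with log2 changes of 0.54, 0.52, 0.81 and 0.72.

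Of 10 tested genes of replacement and variant histones with polyadenylated mRNA, slow/slow ESCs had 1 higher (18.5% of all genes) and 0 lower (21.9%). NPCs had 2 (29.3%) and 0 (27.4%), PSA-NCAM+ cells 6 (28.6%) and 1 (28.1%), and neurons 3 (23.4%) and 2 (28.4%). At an unadjusted p under 0.05 in edgeR, 1 was lower in ESCs and 0 in NPCs. H2afy, which encodes macroH2A, was higher in ESCs (0.39, FDR 3.52e-05), PSA-NCAM+ cells (0.70, FDR 1.18e-08) and neurons (0.40, FDR 1.42e-05). H2afz, which encodes H2A.Z, was higher in NPCs, at 890 ± 12.9 against 441 ± 34.1 CPM (1.01, FDR 3.58e-05). H2afj was lower in slow/slow neurons, at 15.3 ± 1.53 against 31 ± 1.58 CPM (-1.02, FDR 2e-05).

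Of 24 genes of S phase and proliferation, slow/slow ESCs had 5 higher (18.5% of all genes) and 1 lower (21.9%). NPCs had 9 (29.3%) and 2 (27.4%), PSA-NCAM+ cells 11 (28.6%) and 1 (28.1%), and neurons 12 (23.4%) and 0 (28.4%). In neurons 1 was lower at an unadjusted p under 0.05 in edgeR. Ccne2, a G1 to S cyclin, rose from 8.79 ± 0.832 CPM in WT ESCs to 27.6 ± 1.32 CPM in their slow/slow counterparts (1.65, FDR 4.39e-07). E2f1 fell in slow/slow ESCs (-0.37, FDR 0.00573) but rose in slow/slow neurons, at 42.2 ± 1.1 against 16.4 ± 1.14 CPM (1.36, FDR 2.15e-09). Of 11 histone chaperone genes, slow/slow ESCs had 3 higher (18.5% of all genes) and 0 lower (21.9%). At an unadjusted p under 0.05 in edgeR, 0 were lower in ESCs as well. NPCs had 3 (29.3%) and 3 (27.4%), PSA-NCAM+ cells 4 (28.6%) and 3 (28.1%), and neurons 1 (23.4%) and 1 (28.4%). Asf1b, an H3 and H4 chaperone of replication, was higher in neurons (1.39, FDR 8.67e-06), and Hat1, which acetylates newly made H4, was lower in NPCs (-0.95, FDR 3.26e-08) and PSA-NCAM+ cells (-1.02, FDR 1.07e-08).

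Hist1h2bc has a long intron in the splicing table, and this event was picked after its values were seen. The intron spans chr13:23776491-23784044 in mm9, 7554 bases. Its retention was between 0.0% and 3.53% of transcripts across the 24 samples, on 45.45 to 238.49 corrected spliced reads per sample, with a median of 0.53% in WT ESCs, 0.87% in slow/slow ESCs, 0.34% in WT neurons and 0.47% in slow/slow neurons. The ranges of the 2 genotypes overlapped in ESCs, at 0.0% to 3.19% and 0.0% to 1.17%, and in neurons, at 0.27% to 0.5% and 0.0% to 3.3%. Among transcripts kept by poly(A) selection that reach this intron, the spliced form was thus the main one in each sample. Transcripts without a poly(A) tail are mostly lost in the selection and were not assessed.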

How the data were processed

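RNA was measured in 24 samples of 8 groups, mapped by the labels. The authors aligned reads to mm9 with vast-tools version 1, and the submitters' processing notes list bcl2fastq 2.17.1.14, edgeR and mm9. The deposited table holds raw read counts per gene and sample and, as the authors' mean of 3 replicates, group values on the scale of RPKM, a unit inferred from the values. The deposited splicing table gives, from the authors' vast-tools run, percent spliced in with corrected read numbers in a quality string. Columns of the authors' own slow/slow against WT comparisons, which hold fold changes and FDR, and a file of called splicing events were not used.

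Here, counts were scaled by TMM in edgeR 4.0.16 (R 4.3.3), filtered with filterByExpr (16627 of 21553 genes kept) and fitted with the quasi-likelihood test over all 8 groups (16 residual degrees of freedom, common biological coefficient of variation 0.164), with FDR over all genes. Stage, genotype and interaction contrasts were taken. Alternatives were other scalings, no filter beyond a count in 3 samples, DESeq2 1.42.0, fits of only the groups compared, a replicate block, a minimum change of 2-fold and each library left out. In simulated ESC counts of 16291 genes, 90 of 100 genes changed 4-fold and 67 of 100 changed 2-fold were recovered. Of 16093 unchanged genes, 14 were called. The changed genes were drawn from all genes that passed the filter. These rates therefore need not hold for the tested histone genes, whose median level was 0.228 CPM. No library pair was identical (0), and 0 count columns were unused. Same-numbered WT and slow/slow samples deviated together only among PSA-NCAM+ cells (correlations 0.401 to 0.54 in 3 pairs, mean 0.465), against means of -0.0186, -0.0514 and -0.0202 in ESCs, NPCs and neurons.

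Members and gene lists were chosen with earlier results of these data known. The text names the 3 genes of each type with the highest mean CPM and the 3 called genes with the largest interaction. It also names the 3 called genes with the largest change per direction and comparison that reach 1 CPM in a group. Slbp, Npat and Casp8ap2 are always named. Of the 3 genes per list with the smallest FDR in each genotype comparison, only some are named, chosen with their values known. Among those left out is E2f2, which was among the 3 of the S-phase and proliferation list at each stage. Other called genes are named to complete a count and were picked after their values were seen. Transcripts came from GENCODE M21 (GRCm38), by identifier for 46 genes and by symbol for 7, with 1 unmatched. Promoters came from RefSeq (GRCm38.p6).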

Additional observations from a re-analysis of the deposited data

Results flagged for a closer look

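The genotype effect, slow/slow minus WT on the log2 scale, differed between stages by an interaction test in edgeR for these histone genes. Between NPCs and ESCs the difference was -1.40 for Hist1h1a (FDR 0.0489) and -1.19 for Hist2h2be (FDR 0.0335). For Hist1h1a the groups stood at 1.56 CPM for WT NPCs and 0.665 CPM for slow/slow NPCs, and at 0.888 and 1.02 CPM for the ESCs. Leaving out single samples removed the Hist1h1a call in 10 of 12 fits and the Hist2h2be call in 6 of 12.

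Between neurons and ESCs the difference was -2.31 for Hist2h2bb, -2.07 for Hist1h2ac, -1.63 for Hist2h2be, -1.57 for Hist3h2ba, -1.29 for Hist1h2bc, -1.11 for Hist3h2a and -1.04 for Hist1h1c. All these genes were higher in slow/slow ESCs. In neurons Hist3h2a was lower, Hist1h2ac was higher and the other 5 were not called. The difference for Hist1h4d was 2.98 (FDR 0.0247), on 4, 2 and 6 counts in WT neurons and 5, 10 and 20 counts in slow/slow neurons, and it was lost in 4 of 12 fits without 1 sample. The identity of the Hist2h2bb row is uncertain, and Hist1h2ac and Hist3h2a overlap other genes. The causes of these differences were not tested.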

How the results depend on the processing

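No called log2 change altered its sign under any setting tried. Counts of called histone genes moved by more than 1.5 times in the following settings. With only the samples compared in the fit, the counts were 2 for slow/slow against WT PSA-NCAM+ cells, 11 for WT NPCs against ESCs, 3 for WT PSA-NCAM+ cells against ESCs and 9 for WT neurons against ESCs, with fewer genes and samples in each fit. For slow/slow against WT neurons that fit called 8, 3 higher and 5 lower, in place of 10 higher and 1 lower. For WT NPCs against ESCs the count was 8 with library totals alone and 8 with a replicate block over all stages, which was added after seeing the data. With a minimum change of 2-fold, 3 were called for WT and 4 for slow/slow PSA-NCAM+ cells against ESCs. With every gene that had a count in 3 samples, the NPC interaction gave 1.

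The replicate block within stage gave 10 genotype calls for ESCs, 10 for NPCs, 7 for PSA-NCAM+ samples and 14 for neurons (11 higher and 3 lower), where DESeq2 gave 9, 7, 4 and 12. In neurons the block added the calls of Hist3h2ba and Hist2h2be as lower. Samples share only a number outside PSA-NCAM+ cells.

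Leaving out single samples gave 7 to 10 calls for slow/slow against WT ESCs, 7 to 9 for NPCs, 3 to 8 for PSA-NCAM+ samples and 4 to 13 for neurons. Against ESCs, it gave 3 to 8 in WT NPCs, 2 to 7 in WT PSA-NCAM+ cells, 11 to 16 in WT neurons, 2 to 4 in slow/slow NPCs, 5 to 9 in slow/slow PSA-NCAM+ cells and 6 to 16 in slow/slow neurons. The interactions gave 0 to 2 for NPCs and 7 to 10 for neurons. A group left with 2 samples was assumed to vary like the others. WT PSA-NCAM+ cells gave 2 without WT PSA-NCAM+ replicate 1 and 7 without WT ESC replicate 1. Slow/slow PSA-NCAM+ cells gave 5 without slow/slow ESC replicate 3.

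The log2 ratio of the summed CPM, slow/slow over WT, was 0.68, 0.44, 0.41 and -0.51 from ESCs to neurons. In NPCs it was 0.40 with library totals alone, 0.31 without the gene of the highest mean CPM and 0.23 without Hist3h2ba and Hist3h2a. In neurons it was -0.0513 without those 2 genes, an alternative added after seeing the data. Leaving out single samples gave 0.61 to 0.80, 0.42 to 0.46, 0.34 to 0.51 and -0.62 to -0.42.

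The 30 genes left out by the filter on low counts had at most 22 counts in any library. With every gene that had a count in 3 samples, all 54 were tested, and of these 30 the genotype comparisons called 2 in ESCs, 3 in NPCs, 1 in PSA-NCAM+ samples and 3 in neurons. In WT neurons against ESCs 3 of them were called. The total was then 11 for the ESC genotype comparison, 9 of them as before, 11 for NPCs, 8 as before, and 17 for WT neurons against ESCs, 14 as before. The share of all genes called in that fit was not computed, so these counts cannot be set beside it.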

Other observations

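Among the 30 histone genes too rare to test, summed levels were 1.08 CPM in WT ESCs, 1.66 CPM in slow/slow ESCs, 0.866 CPM in WT neurons and 1.62 CPM in slow/slow neurons. The slow/slow neuron samples ran from 0.894 to 2.93 CPM and the WT neuron samples from 0.722 to 1 CPM, so that the groups overlapped. Single genes of this set had a higher slow/slow mean in 19 of 30 cases for ESCs, 14 of 30 for NPCs, 15 of 30 for PSA-NCAM+ samples and 22 of 30 for neurons. These genes received 1692 counts over all 24 libraries, against 59684 for the 24 tested genes.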
